A study of Mus musculus with 16 samples.

Results

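The P2Y receptors are the G protein-coupled receptors for extracellular nucleotides. The 6 genes described here, P2ry1, P2ry2, P2ry6, P2ry12, P2ry13 and P2ry14, were taken by name from the 22609 genes counted in every library. The files list 8 P2ry genes in all. All 6 passed the filter on low counts, which kept 14200 genes. RNA was sequenced from cells of lumbar (L3-L5) dorsal root ganglia (DRG) of male mice aged 8 to 16 weeks. Both genotypes carried floxed alleles of LTβR, the lymphotoxin-beta receptor encoded by Ltbr. CKO mice also carried a Cre recombinase under the promoter of Scn10a (Nav1.8), a sodium channel gene of nociceptors, and fl/fl mice did not. Paclitaxel (PTX), a microtubule-stabilising chemotherapy drug that can cause painful neuropathy, was injected intraperitoneally 3 times at 6 mg/kg, 2 days apart. The other mice received vehicle, labelled water. The paw received a fluorescent lectin tracer, WGA-488, on day 16 after the last dose, and tracer-positive cells were sorted from the dissociated ganglia on day 18.

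The groups were PTX CKO, PTX fl/fl, vehicle CKO and vehicle fl/fl, with 4 libraries each. The series' design text gives 3 per group, and the labels do not say whether each library came from its own animal, so p-values reflect library-to-library spread only, part of which may be technical. Dates in the titles split each group in pairs, an earlier and a later date. PTX and vehicle libraries never share a date, so title date and treatment cannot be told apart, while both genotypes share each date. Gene counts totalled 7906504 to 11668007 per library. The TMM-scaled library sizes used for CPM (counts scaled to a common library total) were 7821999 to 12140582, so 3 counts stood for 0.247 to 0.384 CPM. Levels are CPM on the TMM-scaled library size, without correction for gene length, so levels are compared between libraries and not between genes. The targeted gene did not follow the genotype label: Ltbr averaged 19.3 ± 9.64 CPM in PTX CKO and 10.6 ± 4.18 CPM in PTX fl/fl, and 54.7 ± 31.2 CPM in vehicle CKO and 47.2 ± 3.75 CPM in vehicle fl/fl (SD, n = 4 each). Counts per gene cannot show a deletion of single exons, and CKO is used below as the label of the libraries.

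ATP, ADP, UTP, UDP and UDP-sugars leave stressed or active cells through channels and vesicles and are broken down outside the cell by ectonucleotidases. P2Y1, P2Y2 and P2Y6 couple mainly to Gq proteins, which raise intracellular calcium through phospholipase C, and P2Y12, P2Y13 and P2Y14 couple mainly to Gi proteins, which lower cyclic AMP and open potassium channels. In sensory ganglia P2Y1 and P2Y2 are known from sensory neurons and P2Y12 from satellite glial cells, though not from these alone. P2Y6, P2Y13 and P2Y14 are known from macrophages and other myeloid cells, again not from these alone. In the brain P2Y12 and P2Y13 mark microglia, and on platelets P2Y12 is the target of clopidogrel.

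The genes also differ in position. P2ry12, P2ry13 and P2ry14 form a cluster on mouse chromosome 3 and lie inside Med12l on the opposite strand, per the GRCm38 annotation. Of the 3, P2ry12 shares 9 exon bases with Med12l, and P2ry13 and P2ry14 share 0. P2ry1 lies elsewhere on chromosome 3 and shares 992 exon bases with an antisense transcript that is not a gene of the count files. P2ry2 and P2ry6 are direct neighbours on chromosome 7. The library kit marks strand, but the strand setting of the counting is not given in the sources used here, so reads from a gene and an overlapping antisense partner may not be separate.

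Promoter windows are shown for P2ry1, the member with a positive fold change after PTX in the average over genotypes, and for the adjacent pair P2ry12 and P2ry13, which had negative ones. Each is the 250 bases before the annotated start, 5′ to 3′ on the gene's strand, from RefSeq on GRCm38.p6, with every CG dinucleotide in capitals. The windows are chr3:61002535-61002784 on the plus strand for P2ry1, chr3:59262986-59263235 on the minus strand for P2ry12 and chr3:59210883-59211132 on the minus strand for P2ry13.
P2ry1: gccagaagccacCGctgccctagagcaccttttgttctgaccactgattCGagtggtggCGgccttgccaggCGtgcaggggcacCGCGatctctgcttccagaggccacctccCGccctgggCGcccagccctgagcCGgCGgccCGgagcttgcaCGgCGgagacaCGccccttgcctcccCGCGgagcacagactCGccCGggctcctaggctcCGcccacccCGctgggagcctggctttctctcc
P2ry12: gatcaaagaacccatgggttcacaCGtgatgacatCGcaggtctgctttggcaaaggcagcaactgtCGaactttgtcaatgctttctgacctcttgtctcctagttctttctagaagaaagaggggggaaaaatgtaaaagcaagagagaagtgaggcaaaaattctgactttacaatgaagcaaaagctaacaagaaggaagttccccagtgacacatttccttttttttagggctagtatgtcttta
P2ry13: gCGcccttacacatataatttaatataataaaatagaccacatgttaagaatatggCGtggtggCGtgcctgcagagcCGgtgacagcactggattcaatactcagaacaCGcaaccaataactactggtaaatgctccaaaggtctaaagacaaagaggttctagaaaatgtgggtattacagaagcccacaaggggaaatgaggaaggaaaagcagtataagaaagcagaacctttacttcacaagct
The P2ry1 window has 20 CG dinucleotides and 70.8% G and C, whereas P2ry12 has 3 and P2ry13 has 5, both with 41.6% G and C. The 2 windows of P2ry2, which had a log2 fold change of -0.36 in the average and was not called, have 21 and 26, with 65.2% and 71.2% G and C. Those of P2ry14 (-2.31, not called) have 1 to 4, with 42.8% to 50% G and C. Whether composition goes with the direction of change was not tested. The median of 32841 such RefSeq windows is 6 CG dinucleotides and 52.4% G and C. Windows of 5 of the 6 members were matched, P2ry6 being the exception. GAGGAA, searched for on both strands as the core of the sites of PU.1-type ETS factors of myeloid cells, occurs in the P2ry13 window 48 bases before the start, in all 4 windows of P2ry14, which was not called, and in 23.3% of all windows. The P2ry14 windows at chr3:59131329-59131578 and chr3:59131119-59131368 overlap and share 1 occurrence. TGTGGT and TGACTCA were also searched for. TGTGGT occurs in the P2ry13 window and in 14% of all windows, and TGACTCA in 1 window of P2ry14 and in 4.46% of all windows. These are letters in a window and were not tested as sites.

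In the comparison averaged over both genotype labels, 5 of 6 members had a negative log2 fold change and the median was -2.12, against 0.01 over all 14200 genes. P2ry6 and P2ry13 fell and no member rose by edgeR's quasi-likelihood test with Benjamini-Hochberg adjustment over all genes. These 2 of 6 stand beside a background of 16.7% of all genes called in that comparison and 6.19% called lower. Fewer cells of a type and less RNA per cell cannot be told apart in these bulk libraries. DESeq2 called 4 members, P2ry1 higher and P2ry6, P2ry12 and P2ry13 lower, beside 24.8% of all genes (3500 of 14118 with an adjusted p).

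**Figure D1:**
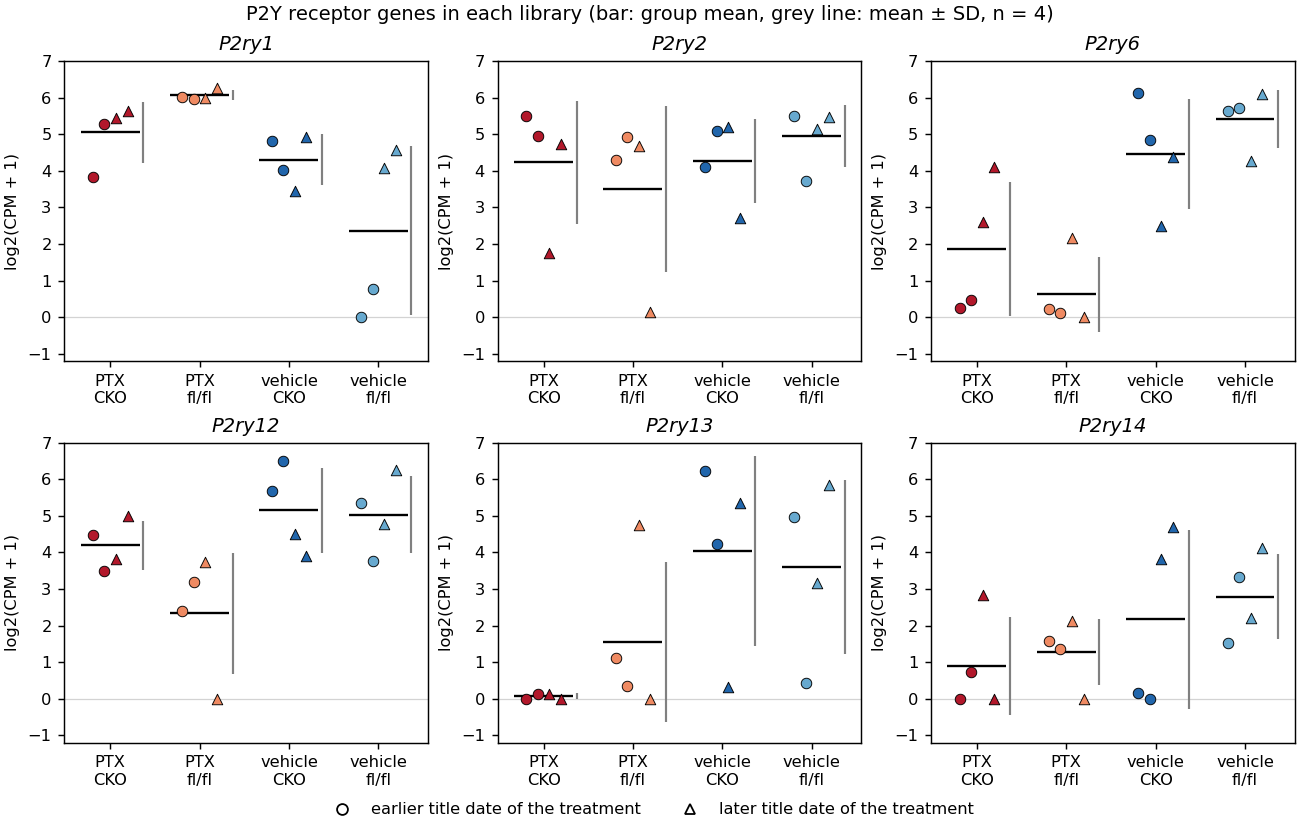
Level of each P2Y gene in every library as log2(CPM + 1), with circles for the earlier and triangles for the later title date, bars for group means and grey lines for the mean ± SD (n = 4). P2ry1 is the only panel in which the PTX fl/fl points, 61.3 to 75.7 CPM, lie above those of every other group, and P2ry13 is at most 0.103 CPM in all 4 PTX CKO libraries.

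P2ry1, the ADP receptor that couples to Gq, had 13.2, 38.1, 42.4 and 49.2 CPM in replicates 1 to 4 of PTX CKO, against 64.2, 61.3, 63.0 and 75.7 CPM in PTX fl/fl. Vehicle CKO libraries had 26.9, 15.4, 9.84 and 29.3 CPM, and vehicle fl/fl libraries 0, 0.703, 15.9 and 23.0 CPM. Group means were 35.7 ± 15.7 CPM in PTX CKO, 66.0 ± 6.54 CPM in PTX fl/fl, 20.4 ± 9.28 CPM in vehicle CKO and 9.89 ± 11.4 CPM in vehicle fl/fl (SD, n = 4 each). PTX fl/fl was highest and did not overlap with PTX CKO, the next in level, whereas PTX CKO overlapped with vehicle CKO and vehicle CKO with vehicle fl/fl. In fl/fl all 4 PTX libraries lay above all 4 vehicle libraries, which 11% of all genes did in that direction, and the log2 fold change was 2.73 ± 1.03 (SE; edgeR adjusted p = 0.147; DESeq2 adjusted p = 0.0473). In CKO, 3 of 4 PTX libraries lay above every vehicle library, and the log2 fold change was 0.81 ± 0.97 (edgeR adjusted p = 0.688). The average over both labels was 1.77 ± 0.70 (edgeR adjusted p = 0.0934; DESeq2 adjusted p = 0.0483). P2ry1 was therefore called by DESeq2 and not by edgeR in the fl/fl and averaged comparisons, and in CKO by neither. DESeq2 called 11% of genes in fl/fl (1517 of 13848 with an adjusted p).

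P2ry2, the receptor for ATP and UTP and also Gq-coupled, showed no separation by treatment. It had 44.1, 29.8, 2.37 and 25.7 CPM in PTX CKO libraries and 18.6, 29.1, 24.7 and 0.102 CPM in PTX fl/fl libraries. Vehicle CKO libraries had 16.0, 33.1, 35.8 and 5.52 CPM and vehicle fl/fl libraries 44.4, 12.2, 34.1 and 43.4 CPM. All 4 groups overlapped, and group means lay between 18.1 ± 12.8 CPM in PTX fl/fl and 33.5 ± 15.0 CPM in vehicle fl/fl (SD, n = 4 each). The log2 fold change after PTX was 0.17 ± 0.99 in CKO and -0.89 ± 0.99 in fl/fl (edgeR adjusted p = 0.948 and 0.677). The average was -0.36 ± 0.70 (edgeR adjusted p = 0.759).

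P2ry6, the UDP receptor, fell after PTX in fl/fl and in the average. PTX fl/fl libraries had 0.166, 0.0879, 3.47 and 0 CPM, which are 2, 1, 34 and 0 counts, whereas vehicle fl/fl libraries had 48.3, 51.5, 18.4 and 67.1 CPM. The groups did not overlap, as was the case for 7.80% of all genes in that direction. The log2 fold change was -5.63 ± 1.55 (SE; edgeR adjusted p = 0.0459). Of the 6 members it was the 1 called in fl/fl, where 4.96% of all genes were called and 1.76% were called lower. PTX CKO libraries had 0.197, 0.380, 5.05 and 16.1 CPM and vehicle CKO libraries 68.6, 27.9, 4.60 and 19.8 CPM. These overlapped in 2 PTX libraries, and the log2 fold change of -2.48 ± 1.34 was not called (edgeR adjusted p = 0.325). Averaged over both labels it was -4.05 ± 1.02 (edgeR adjusted p = 0.0130), with 6 of 8 PTX libraries below every vehicle library.

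The fl/fl call of P2ry6 was narrow. It held in 10 of 24 alternatives, with adjusted p between 0.000311 and 0.323, and was lost on leaving out any vehicle fl/fl library, PTX fl/fl replicates 1, 2 or 4, PTX CKO replicate 3, or vehicle CKO replicates 1, 2 or 4. The averaged call held in 22 of 23. It was lost when the 4 earlier-dated PTX libraries were left out, with a log2 fold change of -3.14 (edgeR adjusted p = 0.141).

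P2ry12, the Gi-coupled ADP receptor, had counts in every library but PTX fl/fl replicate 4. PTX CKO libraries had 21.3, 10.2, 13.2 and 31.0 CPM, and PTX fl/fl libraries had 4.32, 8.17, 12.3 and 0 CPM. Vehicle CKO libraries had 50.2, 89.0, 21.9 and 14.1 CPM, and vehicle fl/fl libraries had 39.6, 12.5, 26.5 and 75.9 CPM. In fl/fl the groups did not overlap, as for 7.80% of all genes in that direction, though the highest PTX and lowest vehicle libraries, at 12.3 and 12.5 CPM, nearly met. The log2 fold change was -2.64 ± 0.99 in fl/fl (edgeR adjusted p = 0.147; DESeq2 adjusted p = 0.0307) and -1.21 ± 0.95 in CKO (edgeR adjusted p = 0.511). The average of -1.92 ± 0.68 was not called by edgeR (adjusted p = 0.0636) and was called by DESeq2 (adjusted p = 0.0119) and in 3 of 23 alternatives in all. Without PTX fl/fl replicate 4, the library with 0 counts, the average was -1.72 and was called (edgeR adjusted p = 0.0274).

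P2ry13, a second Gi-coupled ADP receptor, fell after PTX in CKO and in the average. PTX CKO libraries had 0, 1, 1 and 0 counts, at most 0.103 CPM, whereas vehicle CKO libraries had 74.0, 17.8, 0.256 and 39.5 CPM. The groups did not overlap, as was the case for 4.54% of all genes in that direction. Summed over the 4 libraries each, there were 2 counts in PTX CKO and 1201 counts in vehicle CKO, so vehicle over PTX was 658 at equal depth, with a 95% counting interval of 182 to 5442 that covers counting error only. The fitted log2 fold change was -9.02 ± 2.32 (SE; edgeR adjusted p = 0.0479), a value that depends on the prior count used in the fit. It was the 1 member called in CKO, where 2.58% of all genes were called and 0.359% were called lower.

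In fl/fl, P2ry13 had 1.16, 0.264, 26.1 and 0 CPM after PTX and 30.3, 0.351, 7.91 and 56.0 CPM after vehicle. These overlapped, and the log2 fold change of -1.78 ± 1.60 was not called (edgeR adjusted p = 0.594). Averaged over both labels it was -5.40 ± 1.39 (edgeR adjusted p = 0.0149). This average includes the CKO fold change, so its size also depends on the prior count. Mean levels were 3.47 CPM over the 8 PTX libraries and 28.3 CPM over the 8 vehicle libraries. Of these, 6 of 8 PTX libraries and 2 of 8 vehicle libraries held 3 counts or fewer. The CKO call held in 7 of 23 alternatives that gave P2ry13 a value (in the fit of the compared groups alone it did not pass the filter on low counts), with adjusted p between 5.02e-05 and 0.523. It was lost on leaving out any PTX CKO or vehicle CKO library, PTX fl/fl replicates 1 or 2, or vehicle fl/fl replicates 1, 3 or 4, with adjusted p at most 0.149. The averaged call held in 22 of 23 and was lost without the earlier PTX date, with a log2 fold change of -4.93 (edgeR adjusted p = 0.217).

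P2ry14, the receptor for UDP-glucose, was at 0 in 4 of 16 libraries and overlapped between all groups. PTX CKO libraries had 0, 0.664, 6.19 and 0 CPM and PTX fl/fl libraries 1.99, 1.58, 3.37 and 0 CPM. Vehicle CKO libraries had 0.112, 0, 13.2 and 25.1 CPM and vehicle fl/fl libraries 1.86, 9.02, 3.62 and 16.4 CPM. The log2 fold change was -2.48 ± 1.97 in CKO, -2.14 ± 1.95 in fl/fl and -2.31 ± 1.39 in the average (edgeR adjusted p = 0.521, 0.596 and 0.265). P2ry4, a UTP receptor outside the 6, had 0 counts in all 16 libraries, and P2ry10, a related receptor, averaged 3.15 ± 6.59 CPM after PTX and 9.18 ± 8.98 CPM after vehicle (SD, n = 8 each; edgeR adjusted p = 0.364).

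**Figure D2:**
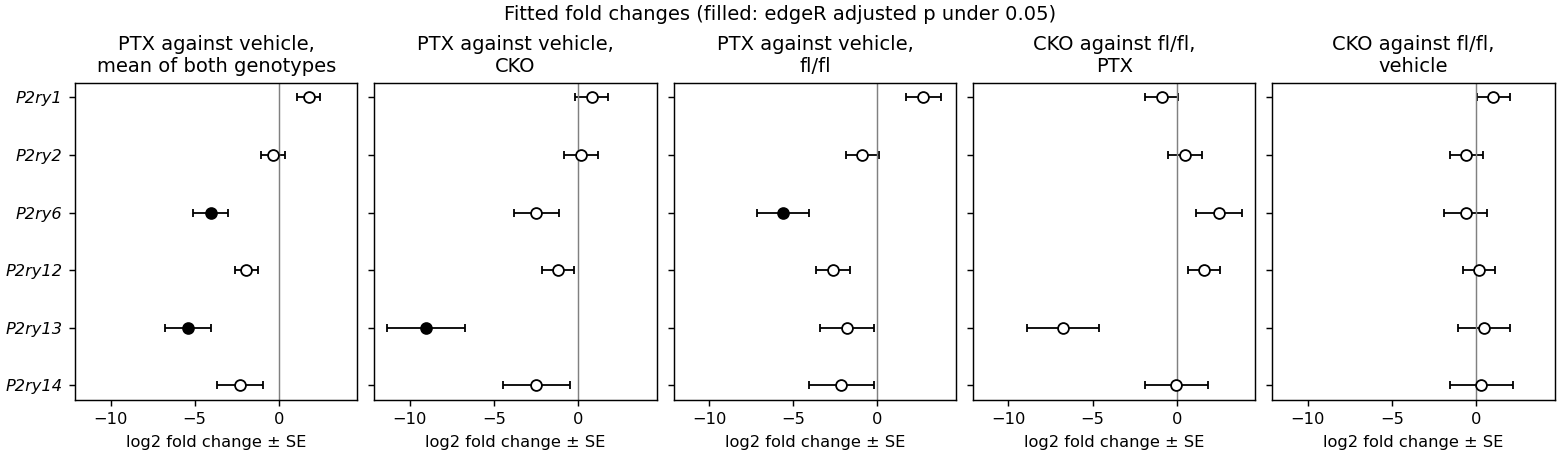
Fitted log2 fold change ± SE of each P2Y gene in the 3 PTX and 2 genotype comparisons, with filled points for edgeR adjusted p under 0.05. Filled points are P2ry6 and P2ry13 in the average, P2ry13 in CKO and P2ry6 in fl/fl, all below 0, and P2ry1 lies above 0 in each PTX comparison.

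Genotype labels were compared within each treatment. No member was called under PTX, where edgeR called 0 genes (0% of 14200, with 266 genes or 1.87% at an unadjusted p under 0.05 and 10 called by DESeq2), nor under vehicle, where it called 0.0211%. At an unadjusted p under 0.05 there was 1 member under PTX, P2ry13, and 0 under vehicle, and DESeq2 called 0 members in both. Under PTX, P2ry1 was lower in all 4 CKO libraries than in any fl/fl library, as were 1.37% of all genes, with a log2 fold change of -0.89 ± 0.97 (edgeR adjusted p = 1). P2ry12 was higher in 3 of 4 PTX CKO libraries than in any PTX fl/fl library (log2 fold change 1.61 ± 0.96, edgeR adjusted p = 1). P2ry13 had 2 counts in PTX CKO and 273 counts in PTX fl/fl, a ratio of fl/fl over CKO of 123 (95% counting interval 33.7 to 1020), with an unadjusted p of 0.00612 and an edgeR adjusted p of 1. Of those 273 counts, 256 came from replicate 3. Under vehicle the log2 fold changes of the 6 members lay between -0.62 ± 1.27 for P2ry6 and 1.04 ± 0.98 for P2ry1.

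Whether the PTX effect differed between genotype labels was tested as an interaction, which called 0.00704% of all genes and no member. P2ry13 had the smallest member p, with a log2 interaction of -7.24 ± 2.62 (unadjusted p = 0.0133, edgeR adjusted p = 1.00). P2ry6 had 3.15 ± 1.85 and P2ry1 -1.92 ± 1.38. The calls of P2ry6 in fl/fl and of P2ry13 in CKO are therefore not shown to differ between labels.

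Some lists of cell markers differed between PTX and vehicle libraries, and some also split by title date within PTX. The 24 macrophage genes summed to 217, 180, 3226 and 2632 CPM in PTX CKO, 300, 457, 2886 and 1974 CPM in PTX fl/fl, 6821, 3647, 5503 and 6458 CPM in vehicle CKO and 7469, 6917, 2552 and 5939 CPM in vehicle fl/fl. The sum lay at 180 to 457 CPM in the 4 PTX libraries of the earlier date, at 1974 to 3226 CPM in the 4 of the later date and at 2552 to 7469 CPM in the 8 vehicle libraries. Of 23 macrophage genes tested, edgeR called 10 lower and none higher in the average, 3 lower in fl/fl and 0 in CKO. The median log2 fold change was -2.63 in the average. At an unadjusted edgeR p under 0.05 there were 15 in the average, 11 in fl/fl and 6 in CKO. DESeq2 called 15, 11 and 3 in turn. None of the 5 defining markers (C1qa, C1qb and C1qc, subunits of complement C1q, Csf1r and Adgre1) was at 0 in any library. C1qb ranged from 3.04 to 57.4 CPM in PTX CKO and from 1.12 to 38.2 CPM in PTX fl/fl, against 75.7 to 368 CPM in vehicle CKO and 86.7 to 521 CPM in vehicle fl/fl.

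P2ry6 was at 0.0879 to 0.380 CPM in the 4 PTX libraries with the lowest macrophage sums, and at 0 to 16.1 CPM in the 4 later PTX libraries. P2ry13 was at 0 to 1.16 CPM and 0 to 26.1 CPM in those same sets. P2ry1 was at 13.2 to 64.2 CPM in the earlier and 42.4 to 75.7 CPM in the later PTX libraries, and P2ry12 at 4.32 to 21.3 CPM and 0 to 31.0 CPM. The part of the macrophage markers in the fall of P2ry6 and P2ry13 was not tested.

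**Figure D3:**
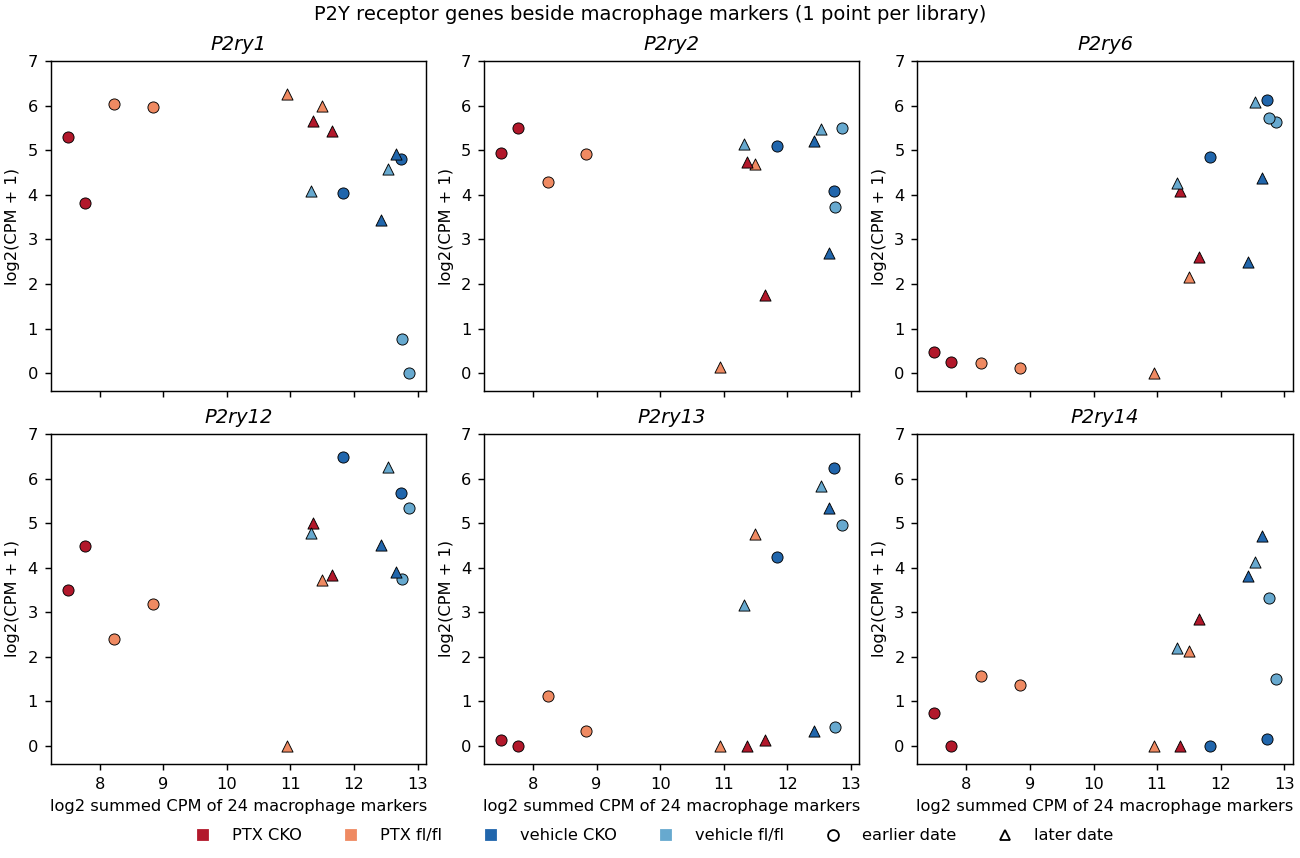
Level of each P2Y gene, log2(CPM + 1), against the log2 of the summed CPM of 24 macrophage markers, 1 point per library, coloured by group and shaped by title date. The 4 PTX libraries of the earlier date sit at sums of 180 to 457 CPM, with P2ry6 at most 0.380 CPM and P2ry1 at 13.2 CPM or more. In the panel of P2ry13 low points occur at low and high sums. P2ry6 is also at 0 CPM in PTX fl/fl replicate 4, at a sum of 1974 CPM.

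Neutrophil markers, 11 genes such as S100a8 and S100a9, summed to 263 to 115373 CPM after PTX and 70046 to 226432 CPM after vehicle, with 0 of 11 called by edgeR in any PTX comparison (in the average, 1 at an unadjusted p under 0.05 and 2 called by DESeq2, and in fl/fl and CKO 0 by either). They were at 263 to 9774 CPM in the earlier and 49461 to 115373 CPM in the later PTX libraries. Pan-neuronal markers summed to 7667 to 20481 CPM after PTX and 1001 to 6344 CPM after vehicle, and all 12 were called higher in the average. Satellite glial markers summed to 1742 to 8168 CPM after PTX and 4658 to 13968 CPM after vehicle, with 9 of 12 called lower in the average. Of those 12, edgeR called 8 lower in fl/fl and 1 in CKO, and DESeq2 called 9 and 2. At an unadjusted edgeR p under 0.05 there were 12 in fl/fl and 6 in CKO. Schwann cell markers summed to 1640 to 2954 CPM after PTX and 5927 to 8792 CPM after vehicle. Of these, 10 of 10 were called lower in the average, 8 in fl/fl and 7 in CKO. The sorted cells are described as neurons. The pan-neuronal and Schwann cell sums did not overlap between PTX and vehicle libraries, whereas the neutrophil, macrophage and satellite glial sums did. Platelet markers summed to 4.57 to 95.2 CPM after PTX and 24.2 to 324 CPM after vehicle. Of 4 tested, edgeR called 1 lower in the average. The platelet gene Ppbp was at 0 in 14 of 16 libraries. Pf4, the other defining platelet marker, was at 0.197 to 62.8 CPM in PTX CKO and 0 to 15.9 CPM in PTX fl/fl. In vehicle CKO it was at 18.6 to 243 CPM, and in vehicle fl/fl at 15.4 to 315 CPM. The part of these lists in the P2Y results was not tested.

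The other genes of nucleotide signalling are described in the averaged comparison, where 10.6% of all genes were called higher and 6.19% lower. Of the 7 ATP-gated P2X channels, 2 rose and 1 fell. P2rx3, the nociceptor channel, averaged 281 ± 217 CPM after PTX and 23.2 ± 18.4 CPM after vehicle (SD, n = 8 each; log2 fold change 3.60 ± 0.86, edgeR adjusted p = 0.0112), and P2rx2, its partner, averaged 8.00 ± 6.34 CPM after PTX and 0.182 ± 0.516 CPM after vehicle (edgeR adjusted p = 0.0146). P2rx2 averaged 2.72 CPM in PTX CKO and 0.365 CPM in vehicle CKO (edgeR adjusted p = 0.438), and was at 9.05 to 15.7 CPM in PTX fl/fl libraries and at 0 in all 4 vehicle fl/fl libraries. P2rx7, the channel of macrophages and glia, averaged 21.7 ± 12.1 CPM after PTX and 54.6 ± 20.0 CPM after vehicle (-1.37 ± 0.38, edgeR adjusted p = 0.0209).

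Among 4 genes of nucleotide release, Panx1, a channel-forming pannexin, rose (1.99 ± 0.42, edgeR adjusted p = 0.00481) and the other 3 were not called. Of 9 ectonucleotidases tested of 11 listed, 2 rose and none fell. These were Acpp, the acid phosphatase of small sensory neurons, with 401 ± 191 CPM in PTX libraries and 118 ± 49.6 CPM in vehicle libraries, and Entpd3 with 120 ± 49.2 CPM in PTX libraries and 18.5 ± 12.5 CPM in vehicle libraries (SD, n = 8 each; edgeR adjusted p = 0.00957 and 0.0133). Of 4 adenosine receptors, Adora1, the Gi-coupled A1 receptor, rose (2.58 ± 0.81, edgeR adjusted p = 0.0390), in 11 of 23 alternatives.

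On the Gq side, 4 of 12 tested genes rose and 1 fell. Plcb3, a phospholipase C of nociceptors, had a log2 fold change of 2.18 ± 0.38, Gnaq, the Gq alpha subunit, 1.22 ± 0.31 and Gna11 0.75 ± 0.19, whereas Itpr3, a calcium-release channel, had -1.31 ± 0.38 (edgeR adjusted p between 0.00118 and 0.0273). On the Gi side, 4 of 14 tested genes rose and 2 fell. Gnao1, the Go alpha subunit abundant in neurons, had 2.67 ± 0.41 and Gnaz 1.65 ± 0.49, whereas Gnai3 had -1.02 ± 0.25 (edgeR adjusted p = 0.000527, 0.0305 and 0.0127). Kcnj3, a potassium channel opened by Gi-coupled receptors, averaged 4.85 ± 3.69 CPM after PTX and 0.0520 ± 0.147 CPM after vehicle (SD, n = 8 each) and was also called. Within fl/fl, P2rx2 and P2rx7, Plcb3 and Gnao1 were called, and within CKO Gnao1 alone of these lists. Of 6 tested genes beside the P2Y loci, Gpr149, an orphan receptor, rose (2.97 ± 0.94, edgeR adjusted p = 0.0417), and Med12l, which surrounds the P2ry12 cluster, was not called (0.93 ± 0.45, edgeR adjusted p = 0.170).

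Libraries of 1 group differed by up to the whole range of the data. Each of the 6 members had 3 counts or fewer in 1 library and 100 counts or more in another of the same group, which also held for 29.5% of all tested genes and for 47.9% of the 5706 genes in the members' range of mean CPM. In PTX fl/fl replicate 4, 5 of 6 members had 3 counts or fewer, while P2ry1 had 745 counts. In that library 17.9% of the 5706 genes had 3 counts or fewer, against 0.964% to 18.9% in the other libraries.

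Genes whose pattern was most like each member's were ranked by the Pearson correlation of log2(CPM + 1) over the 16 libraries after subtracting the 4 group means, among 10856 genes with a mean of at least 5 CPM. The 3 nearest to P2ry1 were Ntrk3, the neurotrophin-3 receptor (0.93), Tab3 (0.91) and Rcbtb1 (0.89). P2ry6 was nearest to Cyp27a1 (0.91), Ms4a6b, a myeloid membrane protein (0.91), and F13a1, the clotting factor subunit of resident macrophages (0.90). For P2ry2 they were Sema4b (0.90), Chchd6 (0.89) and Fxyd3 (0.88). P2ry12 was nearest to Acad10 (0.87), Wdr60 (0.86) and Fcgrt (0.86), P2ry13 to Cntln (0.88), Tnip1 (0.84) and Necab3 (0.81), and P2ry14 to Aurka (0.91), Lonrf1 (0.85) and Zfp800 (0.82). Among the members, P2ry2 and P2ry12 were most alike (0.74), then P2ry6 and P2ry13 (0.56) and P2ry12 and P2ry13 (0.55). These values are descriptions over points that share library, date and depth, and several rest on the libraries at or near 0 counts. With a pseudocount of 0.25 in place of 1, 2 of the 3 nearest genes were shared for each member except P2ry12, which shared 1.

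**Figure D4:**
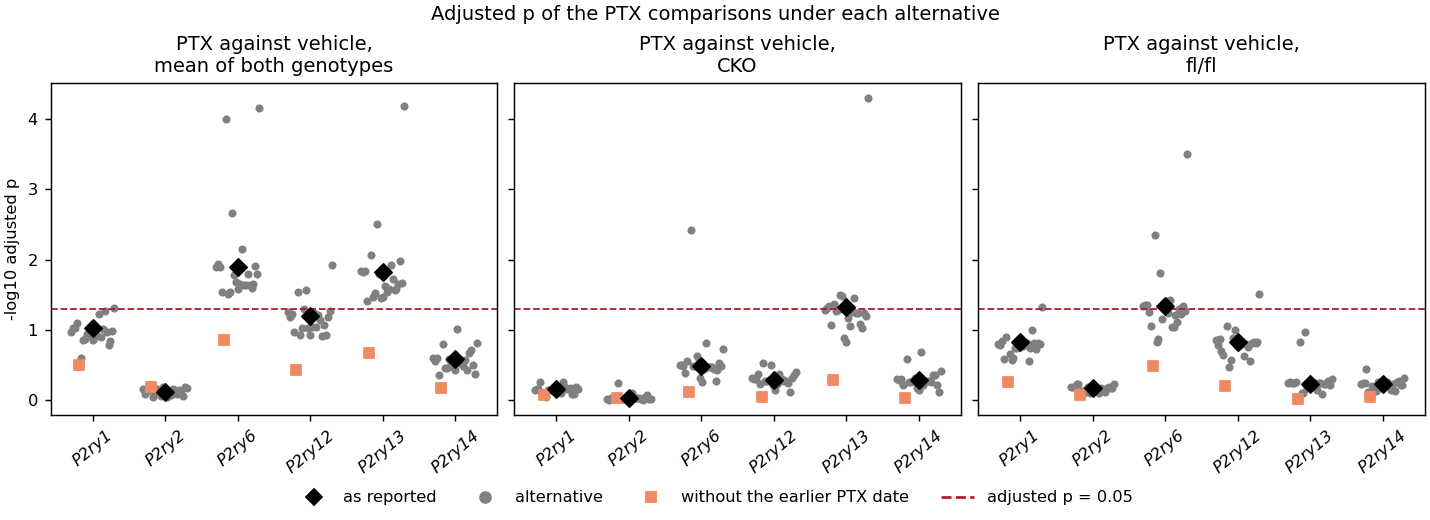
The -log10 of the adjusted p of each P2Y gene in the 3 PTX comparisons, as reported (diamonds), under each alternative (grey points) and without the earlier PTX date (squares), with a dashed line at 0.05. In the average P2ry6 and P2ry13 stay above the line in all alternatives but the one without the earlier PTX date, and within a single genotype label the diamonds of P2ry6 in fl/fl and P2ry13 in CKO lie just above it, while those of P2ry6 in CKO (0.325) and P2ry13 in fl/fl (0.594) lie below.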

How the data were processed

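RNA of sorted DRG cells was measured in 16 libraries. The labels' protocols give a TruSeq stranded mRNA kit, roughly 500 ng of input and reads of 50 bases from 1 end. Bcl2fastq, TopHat2, HTSeq and the mm9 build were used per the submitters' processing notes, with no versions. The authors deposited raw read counts for each gene, not normalized. Each library was checked to hold 22609 genes and 5 HTSeq summary lines, which were left out. Alignments that were not unique made up 39.5 to 44.2 percent of all counted alignments and were not assigned, which can lower genes with close copies. No pair of libraries within a group was alike within counting error (lowest chi-square per degree of freedom 19.5 over 24 pairs).

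Counts were fitted with edgeR 4.0.16 in R 4.3.3 (filterByExpr, TMM, robust quasi-likelihood F test, two-sided, 1 model over all 16 libraries, 12 residual degrees of freedom, common biological coefficient of variation 0.939), with Benjamini-Hochberg adjustment over all 14200 tested genes and a threshold of 0.05. SE is the size of the fold change over the square root of F. The averaged comparison uses the same libraries as its parts. DESeq2 1.42.0 was an alternative. Counting intervals are exact binomial.

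The P2Y genes, 8 lists of nucleotide signalling or neighbouring genes and 10 lists of cell markers were chosen with earlier results of these data known. Named genes are the members, the 3 genes most like each, and called list genes, up to 4 per list by smallest adjusted p, of which some are not given here. Endothelial markers summed to 25.2 to 84.2 CPM after PTX and 29.7 to 206 CPM after vehicle, fibroblast markers to 94.6 to 428 CPM after PTX and 428 to 2884 CPM after vehicle, lymphocyte markers to 0.0985 to 9.75 CPM after PTX and 0.449 to 26.7 CPM after vehicle, and nociceptor markers to 5797 to 12423 CPM after PTX and 598 to 2763 CPM after vehicle. Promoter windows and neighbours come from RefSeq and a GRCm38 annotation, another build than the counts, and were used for sequence and names only. To check pairing, deviations from the group means were correlated between same-numbered libraries. In CKO against fl/fl under PTX the correlations were 0.43, 0.48, 0.47 and 0.23, and there a replicate block changed no call. Same-numbered libraries of the 2 genotypes also share a title date, so these correlations cannot tell pairing from a shared date. The other comparisons had correlations of -0.20 to 0.11 and were not treated as paired.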

Additional observations from a re-analysis of the deposited data

Results flagged for a closer look

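In each of the 4 groups, the 6 members, Ltbr, Scn10a and the macrophage marker sum were examined, 36 sets of 4 libraries in all, and 3 held a library far from the other 3, with a gap above the 95% critical value of Dixon's test, and chance gives about 1 in 20. All 3 were replicate 3 of a PTX group. P2ry6 was at 3.47 CPM in PTX fl/fl replicate 3, against 0 to 0.166 CPM in the other 3 libraries. P2ry13 was at 26.1 CPM in the same library, against 0 to 1.16 CPM in the other 3. P2ry14 was at 6.19 CPM in PTX CKO replicate 3, against 0 to 0.664 CPM in the other 3. Both libraries carry the later PTX date, and their macrophage marker sums were 3226 CPM in PTX CKO and 2886 CPM in PTX fl/fl. No other result was singled out.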

How the results depend on the processing

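The calls of P2ry6 and P2ry13 in the average over genotype labels kept their direction throughout and were lost in 1 of 23 alternatives, whereas the calls within a single label were lost in most. After PTX in fl/fl, edgeR called 704 genes and 1 member as reported, 361 and 0 with a replicate block, 4 and 0 without the earlier PTX date, 1923 genes without the later PTX date, 1517 and 3 with DESeq2, and 0 members with the compared groups alone. Leaving out 1 library gave 177 to 845 genes and 0 to 1 members, with 177, 206, 263, 307 and 449 genes without PTX fl/fl replicates 1 and 2 and vehicle fl/fl replicates 1, 2 and 3 in turn. In CKO the counts were 366 genes and 1 member as reported, 159 and 0 with the compared groups alone (where P2ry13 did not pass the low-count filter), 126 and 0 with a replicate block, 0 and 0 without the earlier PTX date, 2077 and 2 without the later PTX date, 1341 genes with DESeq2, and 0 members with DESeq2 size factors, and 30 to 549 genes and 0 to 1 members on leaving out 1 library, with 68, 30, 209, 36 and 97 genes without PTX CKO replicates 1 and 2 and vehicle CKO replicates 1, 2 and 3 in turn. With the replicate block, the log2 fold change of P2ry6 in fl/fl was -6.38 (edgeR adjusted p = 0.0896) and that of P2ry13 in CKO was -9.54 (edgeR adjusted p = 0.0844). In the average, 2378 genes and 2 members were called, 224 and 0 without the earlier PTX date, 4244 genes without the later, and 3500 and 4 with DESeq2, with 1544 (without PTX fl/fl replicate 1) to 2661 genes and 2 to 3 members on leaving out 1 library. For CKO against fl/fl under PTX, 34 genes were called with the earlier date only and 10 with DESeq2, against 0 as reported and on leaving out any library. Under vehicle, 3 genes as reported became 0 with the compared groups alone or the later date only, 1 with a replicate or title date block, 8 with the earlier date only, 83 with DESeq2 and 1 to 15 on leaving out 1 library. The interaction called 1 gene, 0 with DESeq2 size factors, a replicate block or without the earlier PTX date, 50 with DESeq2, and 0 to 4 on leaving out 1 library. No member was called in these 3 comparisons under any alternative.

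Signs turned only in fold changes that were not called. P2ry2 had -0.70 in CKO without the earlier PTX date and 0.11 in the average without the later, and -0.23 to 0.56 in CKO on leaving out 1 library. Between genotype labels under PTX, P2ry14 had 0.04 with DESeq2 size factors or DESeq2, 0.06 with the compared groups alone, 0.90 with the later date only and -2.88 to 0.51 on leaving out 1 library. Under vehicle, the later date only gave -0.0016 for P2ry1, -1.54 for P2ry12 and -0.69 for P2ry13. The title date block gave -0.05 for P2ry12 and -2.31 for P2ry14, and P2ry14 had -0.78 with the replicate block and -6.31 with the earlier date only. Leaving out 1 library gave -0.43 to 0.74 for P2ry12, -0.30 to 1.36 for P2ry13 and -0.80 to 0.99 for P2ry14. The interaction of P2ry14 was 0.57 without the earlier PTX date and -3.19 to 0.78 on leaving out 1 library. The cause was not tested. Without the earlier PTX date each PTX group holds 2 libraries, and at 3 counts or fewer counting error limits a P2Y gene's level.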
